A study of Mus musculus with 4 samples.

Results

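The kinesin superfamily genes were taken as every gene on the array's annotation whose symbol is Kif followed by a digit, or Kifc. The rule found 41 kinesin genes among the 18193 genes with a probe set that names 1 symbol, covered by 104 such probe sets. Each gene was read from its brightest probe set, and 31 of the 41 had a mean over the arrays at or above the median of all probe sets, an intensity of 16.9, as did 11392 genes in all. The mouse intestinal organoids, epithelial cultures grown in Matrigel, were each measured on 1 Affymetrix array per combination of Tacc3 genotype (Tacc3 wt/wt or Tacc3 fl/fl) and day (4 or 6). All 4 cultures, the wt/wt controls included, had received 4OHT for 24 hours to recombine the conditional alleles. The design text names Apc and Tacc3 as the recombined genes, whereas the sample descriptions call both day 4 cultures normal and both day 6 cultures Apc-deficient, so the Apc state at day 4 is not settled by the labels. Day and described Apc state cannot be told apart. The labels say nothing of replicate cultures and give neither the Cre driver, nor the floxed exons, nor the age or number of the animals.

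Kinesins are motor proteins that use ATP to walk along microtubules or to take their ends apart. One set builds the mitotic spindle, moves chromosomes and completes cell division, and its genes are transcribed mainly in cycling cells; another set carries vesicles, organelles and protein complexes towards the cell membrane; others set the length of cilia and of cytoplasmic microtubules. Tacc3, the gene floxed here, encodes a spindle protein that stabilises the microtubule bundles attached to chromosomes. In a bulk culture, fewer cells of a type and less RNA per cell cannot be told apart.

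Each group is a single array, so nothing here could be checked against replicates, and no test or p-value is given. Differences are on the log2(intensity + 16) scale, on which 1 is a 2-fold change and changes of dim genes are understated. A level is an array intensity, and levels of different genes are not set against each other, because probe sets differ in their response.

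Between day 4 and day 6, the spindle motor Kif20a and the microtubule depolymerase Kif2a were at least 2-fold higher at day 6 in both genotypes, although Kif2a fell short of 2-fold after quantile normalization (0.96 and 0.94). Kif18a was 2-fold higher in wt/wt, and Kif1b, a carrier of mitochondria and vesicle precursors, was lower by more than 2-fold in wt/wt. The remaining kinesins past the filter differed by less than 2-fold. In wt/wt, 3 of 31 kinesins were at least 2-fold higher at day 6, against 18.3% of all genes past the filter, and 1 was lower, against 2.97%. In fl/fl, 2 of 31 were higher, against 12.2% of all genes, and 0 were lower, against 2.9%. After quantile normalization 2 were higher and 4 lower in wt/wt, and 1 higher and 3 lower in fl/fl. The shares of all genes were not counted on that scale, so these counts have no background beside them. As reported, the kinesins held no larger share of 2-fold higher genes than the array as a whole. Their median difference, 0.09 for wt/wt and -0.11 for fl/fl, stood beside 0.17 and 0.00 for all genes.

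**Figure D1:**
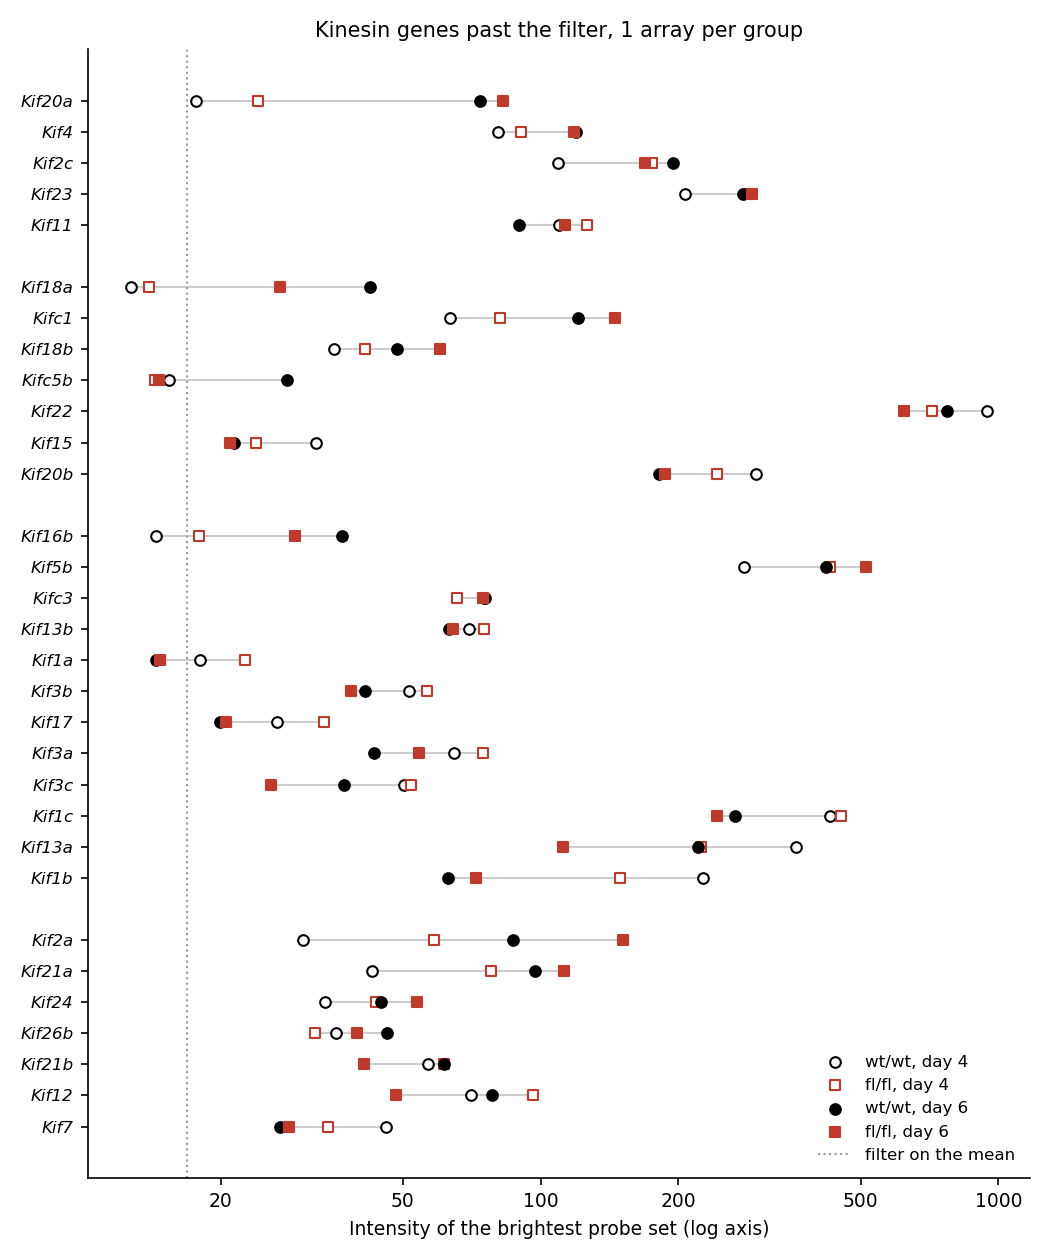
Intensity of the brightest probe set (log axis) of the 31 kinesin genes past the filter, in blocks from top to bottom of the mitotic kinesins of the contrast, other spindle kinesins, cargo transport kinesins, and cilium or microtubule length kinesins; each point is 1 array, open for day 4 and filled for day 6. Within a row the filled points of Kif20a and Kif2a lie to the right of the open ones, and those of Kif1b to the left; rows are not comparable with each other.

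Among the 5 mitotic kinesins named for the contrast, Kif20a had the widest difference between days. Kif20a brings the chromosomal passenger complex to the midzone before cells divide. Its intensity was 17.7 on the wt/wt day 4 array, 24.1 on fl/fl day 4, 73.8 on wt/wt day 6 and 82.9 on fl/fl day 6. Both day 6 arrays lay above both day 4 arrays, and the difference came to 1.42 (wt/wt) and 1.30 (fl/fl). The gene has 1 probe set, so no other probe set bears on it.

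Kif4, a chromosome-bound motor that sets the length of the central spindle, had an intensity of 80.8 on wt/wt day 4, 90.6 on fl/fl day 4, 119.5 on wt/wt day 6 and 118.0 on fl/fl day 6. Both day 6 values again exceeded both day 4 values, by 0.49 in wt/wt and 0.33 in fl/fl, short of 2-fold. Kif23 is the motor subunit of centralspindlin, which organises the cleavage furrow. Its intensity was 207 on wt/wt day 4, 284 on fl/fl day 4, 277 on wt/wt day 6 and 289.8 on fl/fl day 6, so the wt/wt day 4 array alone stood lower. The day difference of Kif23 came to 0.39 (wt/wt) and 0.03 (fl/fl), and it was below 0 in both genotypes after quantile normalization (-0.09 and -0.24).

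Kif2c takes microtubules apart at centromeres and corrects wrongly attached chromosomes. Its intensity was 109 on wt/wt day 4, 175 on fl/fl day 4, 195 on wt/wt day 6 and 169 on fl/fl day 6. As for Kif23, the wt/wt day 4 array was the low one, and the day difference came to 0.75 (wt/wt) and -0.05 (fl/fl). The brightest probe set of Kif2c is of a kind that can bind several transcripts. Its other probe sets past the filter read 0.68 and 0.06, -0.48 and -0.61, and -0.39 and 0.04 (wt/wt and fl/fl). The direction of Kif2c between days therefore depended on the probe set. Kif11, which slides antiparallel spindle microtubules apart to make the spindle bipolar, had an intensity of 109.7 on wt/wt day 4, 126 on fl/fl day 4, 89.6 on wt/wt day 6 and 113 on fl/fl day 6. Within each genotype its brightest probe set read lower at day 6 (-0.25 for wt/wt and -0.14 for fl/fl), although the days overlapped.

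The other spindle kinesins were just as uneven. Kif18a, which damps the oscillation of chromosomes on the spindle, had an intensity of 12.7 on wt/wt day 4, 14.0 on fl/fl day 4, 42.5 on wt/wt day 6 and 26.9 on fl/fl day 6. Both day 4 values lay below the intensity of the filter, so the gene passed only through day 6 and had to differ in that direction to be counted; its day difference came to 1.02 (wt/wt) and 0.52 (fl/fl). Kifc1, a minus-end-directed motor that gathers spindle poles, had an intensity of 63.5 on wt/wt day 4, 81.6 on fl/fl day 4, 121 on wt/wt day 6 and 145 on fl/fl day 6. Both day 6 arrays exceeded both day 4 arrays, by 0.78 in wt/wt and 0.72 in fl/fl. The probe set of Kifc1 is of a kind that can bind several transcripts, and its close copy Kifc5b (0.48 and 0.01, with 3 of 4 arrays below the filter's intensity) may share signal with it.

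Kif18b, which shortens astral microtubules together with Kif2c, was 0.33 higher in wt/wt and 0.41 higher in fl/fl. Kif22, a chromosome-arm motor, was lower in both (-0.28 and -0.19), as were Kif15, which can stand in for Kif11 (-0.37 and -0.11), and Kif20b, a motor of late mitosis and cytokinesis (-0.65 and -0.35). The brightest probe set of Kif22 can bind several transcripts, and its others past the filter read -0.12 and 0.10, and 0.39 and 0.10. Kif20b had an intensity of 295 on wt/wt day 4, 243 on fl/fl day 4, 182 on wt/wt day 6 and 187 on fl/fl day 6, with both day 6 arrays below both day 4 arrays. Kif14, which acts in cytokinesis, stayed below the filter, with intensities between 5.8 and 7.1. The 12 spindle kinesins past the filter had median day differences of 0.44 (wt/wt) and 0.02 (fl/fl), with 8 of 12 and 7 of 12 above 0. Over all genes past the filter, 57.5% (wt/wt) and 49.9% (fl/fl) lay above 0. The 12 include Kif18a, which passed only through day 6, and Kifc5b, which passed only through the wt/wt day 6 array. Both had to be higher there to be counted. Kif2a, placed with the motors of microtubule length, is not among the 12.

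The promoters of the mitotic kinesins are shown because a short string linked to the cell cycle was found in most of the spindle kinesin windows. Genes transcribed late in the cell cycle often carry the cell cycle genes homology region, which the DNA-binding subunit Lin54 of the MuvB complex recognises, downstream of boxes bound by NF-Y. RefSeq windows on GRCm38.p6, from 250 bases before to 50 after the annotated start, were matched for 33 of the 41 kinesins, with the first listed window used where a gene had several. The search covered both strands. The homology region was searched as TTTGAA. A variant of it that reads the same on both strands was searched as TTCGAA. The box bound by NF-Y was searched as CCAAT. Matches of different motifs may overlap at an end base. In the sequences, written 5' to 3' along each gene, capitals mark these motifs on either strand. The windows of the mitotic kinesins of the contrast with an entry were Kif11 at chr19:37376132-37376431 on the plus strand, Kif23 at chr9:61946750-61947049 on the minus strand, Kif2c at chr4:117178723-117179022 on the minus strand, and Kif4 at chrX:100625815-100626114 on the plus strand.
Kif11: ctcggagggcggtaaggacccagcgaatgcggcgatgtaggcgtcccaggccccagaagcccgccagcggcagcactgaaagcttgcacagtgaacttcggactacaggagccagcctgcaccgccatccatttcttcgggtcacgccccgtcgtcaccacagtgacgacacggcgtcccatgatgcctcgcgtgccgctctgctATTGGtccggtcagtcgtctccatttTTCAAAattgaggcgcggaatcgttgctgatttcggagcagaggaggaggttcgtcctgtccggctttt
Kif23: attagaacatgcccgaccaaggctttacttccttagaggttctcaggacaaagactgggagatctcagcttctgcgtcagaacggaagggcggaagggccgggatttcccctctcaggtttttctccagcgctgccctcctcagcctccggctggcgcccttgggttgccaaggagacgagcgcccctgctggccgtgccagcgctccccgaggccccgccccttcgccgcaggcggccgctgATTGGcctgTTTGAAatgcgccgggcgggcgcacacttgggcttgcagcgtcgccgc
Kif2c: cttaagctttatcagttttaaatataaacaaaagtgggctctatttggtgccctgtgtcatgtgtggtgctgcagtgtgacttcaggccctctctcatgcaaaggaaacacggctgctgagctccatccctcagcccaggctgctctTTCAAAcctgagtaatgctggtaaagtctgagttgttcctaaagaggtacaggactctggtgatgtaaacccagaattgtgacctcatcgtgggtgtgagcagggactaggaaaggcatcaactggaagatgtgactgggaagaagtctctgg
Kif4: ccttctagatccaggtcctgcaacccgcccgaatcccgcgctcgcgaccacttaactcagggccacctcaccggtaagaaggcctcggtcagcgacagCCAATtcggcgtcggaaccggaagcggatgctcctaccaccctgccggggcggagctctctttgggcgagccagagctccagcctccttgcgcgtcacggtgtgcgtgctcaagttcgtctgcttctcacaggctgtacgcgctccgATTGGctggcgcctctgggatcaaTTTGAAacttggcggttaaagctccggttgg

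All 4 of these windows held TTTGAA. It lay at -19 from the start in Kif11, at 3 in Kif23, at -103 in Kif2c and at 20 in Kif4, counted to the leftmost base with no base 0. A CCAAT box lay upstream of it in Kif11 (-45), Kif23 (-7) and Kif4 (-152 and -5), and Kif2c had none. Of the 8 other spindle kinesins, 7 held TTTGAA, which makes 11 of 12, and in 9 of 12 it fell between 60 bases before and 50 after the start. The share of all genes with the string in that narrower span was not counted, so the 9 of 12 has no background beside it. Kifc1 and Kifc5b, close copies with much the same window sequence, are both in these counts. None of the 10 first-listed transport kinesin windows held TTTGAA, although a second window of Kif1a held it at 1 place. It was present in 2 of the 11 windows of cilium and length kinesins (Kif26b and Kif27). Kif2a, which also acts at spindle poles, and Kif2b were counted in that group and not with the spindle kinesins. Neither of their windows held TTTGAA, so the 11 of 12 depends on this grouping. Among all 32851 windows 17.9% held TTTGAA, and among the first windows of 17491 protein-coding genes 16.5%. CCAAT was present in 3 of 4, 5 of 8, 3 of 10 and 5 of 11 windows of these groups in turn, and in 39.0% of protein-coding windows. Either form of the region together with CCAAT occurred in 3 of 4, 5 of 8, 0 of 10 and 3 of 11 windows, against 7.43% of protein-coding windows. The variant TTCGAA was found in 1 kinesin window, that of Kif24, and in 1.87% of protein-coding windows. A match is a string of letters and no measured binding site.

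Kif20a, the mitotic kinesin of the contrast with the widest day difference, had no matched window. The windows of 3 other genes that differed at least 2-fold between days follow for comparison. They were Kif18a at chr2:109280488-109280787 on the plus strand, Kif2a at chr13:107022306-107022605 on the minus strand, and Kif1b at chr4:149307684-149307983 on the minus strand.
Kif18a: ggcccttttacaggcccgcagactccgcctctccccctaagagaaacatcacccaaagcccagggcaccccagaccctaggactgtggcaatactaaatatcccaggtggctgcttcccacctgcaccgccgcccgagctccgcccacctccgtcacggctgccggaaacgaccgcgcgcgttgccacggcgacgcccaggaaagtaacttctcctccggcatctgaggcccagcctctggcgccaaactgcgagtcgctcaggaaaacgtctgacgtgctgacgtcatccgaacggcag
Kif2a: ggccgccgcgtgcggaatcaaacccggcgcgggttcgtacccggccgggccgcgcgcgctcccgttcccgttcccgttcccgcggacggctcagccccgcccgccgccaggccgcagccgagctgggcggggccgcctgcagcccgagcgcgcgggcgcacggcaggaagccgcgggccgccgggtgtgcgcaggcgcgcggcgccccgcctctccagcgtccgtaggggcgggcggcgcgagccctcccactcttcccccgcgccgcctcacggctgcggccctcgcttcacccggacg
Kif1b: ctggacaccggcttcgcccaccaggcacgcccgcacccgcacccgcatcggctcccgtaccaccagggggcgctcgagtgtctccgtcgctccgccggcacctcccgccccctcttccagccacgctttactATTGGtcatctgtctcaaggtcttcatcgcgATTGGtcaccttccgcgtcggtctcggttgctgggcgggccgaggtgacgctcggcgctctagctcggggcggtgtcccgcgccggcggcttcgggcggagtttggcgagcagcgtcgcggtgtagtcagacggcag

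Kif18a was the spindle kinesin without TTTGAA in its window, and it was higher at day 6. Kif2a, also higher at day 6, had neither string. Kif1b, lower at day 6, had CCAAT at -118 and -87 and no TTTGAA. Kif20b held TTTGAA at 8 and 14 and was lower at day 6 in both genotypes.

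Among the cargo carriers, most values were lower at day 6. In wt/wt 10 of the 12 transport kinesins past the filter lay below 0, and in fl/fl 9 of 12, with medians of -0.24 and -0.39. These include Kif1a, which passed the filter only through day 4 and so had to be lower at day 6 to be counted. Over all genes past the filter, 4832 of 11392 lay below 0 in wt/wt and 5678 in fl/fl. The transport median was also below 0 under quantile normalization (-0.51 and -0.48), and when arrays were centred on their medians (-0.16 and -0.34).

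Kif1b had an intensity of 226 on wt/wt day 4, 149 on fl/fl day 4, 62.8 on wt/wt day 6 and 72.1 on fl/fl day 6. Both day 6 arrays lay below both day 4 arrays, at differences of -1.62 for wt/wt and -0.91 for fl/fl. Kif1c, a carrier of dense-core vesicles and of mRNA, had an intensity of 429.6 on wt/wt day 4, 453 on fl/fl day 4, 266 on wt/wt day 6 and 243 on fl/fl day 6. Its day 6 arrays were likewise the lower ones (-0.66 and -0.86), and the differences were past 2-fold after quantile normalization (-1.10 and -1.13). The other probe sets of Kif1c past the filter read 0.08 and -0.0042, and -0.27 and 0.23 (wt/wt and fl/fl). The decrease of Kif1c therefore depended on the probe set.

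Kif13a, which moves recycling and mannose-6-phosphate receptor vesicles, had an intensity of 362 on wt/wt day 4, 224 on fl/fl day 4, 221 on wt/wt day 6 and 112 on fl/fl day 6. It was lower at day 6 within each genotype (-0.68 and -0.91) and lower in fl/fl on each day, so the wt/wt day 4 array was highest and the fl/fl day 6 array lowest. Its brightest probe set can bind several transcripts. Without such probe sets Kif13a read 1.53 and 0.66, the opposite direction.

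The heterotrimeric kinesin that drives cargo into the cilium pairs Kif3a with Kif3b or Kif3c. The day difference of Kif3a was -0.44 in wt/wt with -0.37 in fl/fl, that of Kif3b -0.23 and -0.41, and that of Kif3c -0.32 and -0.71. For each of the 3 subunits both day 6 arrays lay below both day 4 arrays. Their non-motor partner Kifap3, which links the motor pair to cargo, differed more: its intensity was 118 on wt/wt day 4, 114 on fl/fl day 4, 45.1 on wt/wt day 6 and 41.0 on fl/fl day 6, a difference of -1.13 and -1.19. All subunits of the complex therefore read lower at day 6 with the brightest probe set of each.

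Kif5b, the ubiquitous heavy chain of conventional kinesin, went the other way, with an intensity of 278 on wt/wt day 4, 429.6 on fl/fl day 4, 419 on wt/wt day 6 and 514 on fl/fl day 6. The wt/wt day 4 array stood lowest, and the day difference came to 0.56 (wt/wt) and 0.25 (fl/fl), the latter -0.01 after quantile normalization. Its neuronal counterparts Kif5a and Kif5c stayed below the filter, as did Kifc2, another motor known from neurons. Kif16b, an early endosome carrier, was higher at day 6 (0.80 and 0.41), with its wt/wt day 4 value of 14.4 below the filter's intensity, and its next probe set, itself below the filter, read -0.17 and -0.22. Kif17, a dendritic and ciliary motor (-0.25 and -0.44), Kif13b (-0.11 and -0.19), Kif1a (-0.16 and -0.33, with both day 6 arrays below the filter's intensity) and Kifc3, an apical minus-end-directed motor (-0.01 and 0.15), differed less.

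The contrast between division and transport motors followed from these values. The median of the 5 mitotic kinesins minus that of the 12 transport kinesins came to 0.73 (wt/wt) and 0.42 (fl/fl). In wt/wt the mitotic median was 0.49, and 0.05 after quantile normalization. In fl/fl it was 0.03, beside a median of all genes of 0.00, and -0.24 after quantile normalization. Which side of the gap was the larger in fl/fl depended on the probe set: the medians were 0.03 and -0.39 with the brightest, 0.21 and -0.13 with averaged probe sets, and 0.19 and -0.11 with the second-brightest. The difference between the genotypes in this gap was not tested.

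**Figure D2:**
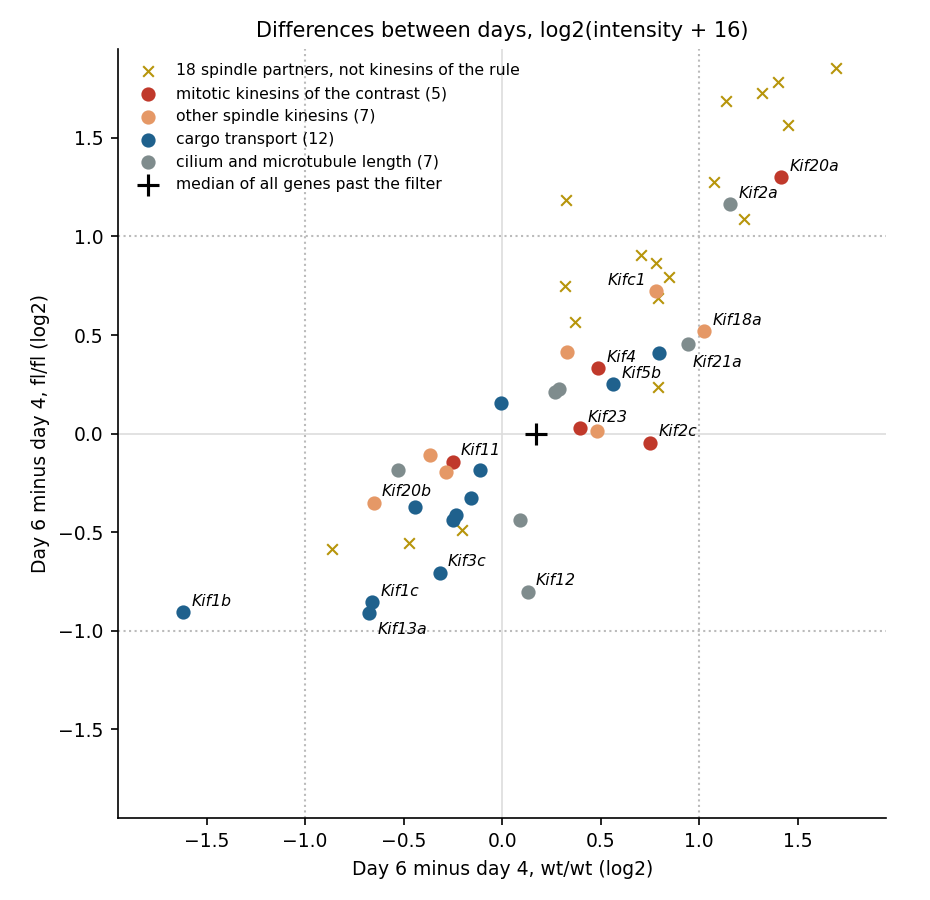
Difference between days in wt/wt (horizontal axis) and fl/fl (vertical axis), in log2(intensity + 16), for the 31 kinesin genes past the filter by role and for 18 spindle partner genes; dotted lines mark 2-fold and the cross the median of all genes. Kif20a and Kif2a lie past 2-fold on both axes and Kif1b past 2-fold on the wt/wt axis, and most transport kinesins lie in the lower left.

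Both genotypes gave like day differences: of 31 kinesins, 27 had the same sign in both (87.1%), beside 80.8% of all genes past the filter. Across these 31 genes the differences correlated with Pearson r = 0.86 and Spearman rho = 0.86, and across all genes with r = 0.80. The contrasts share no array; genes are not independent replicates, and the arrays share the shift in control signals given further on, so this is a description.

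The motors that regulate microtubule length and cilia held the other strong difference. Kif2a, a depolymerase of spindle poles and cilia, had an intensity of 30.2 on wt/wt day 4, 58.6 on fl/fl day 4, 87.1 on wt/wt day 6 and 151 on fl/fl day 6. The 4 arrays were ordered by day and, within a day, by genotype, and the day difference was 1.16 in both genotypes. With the mean of its probe sets it was 0.24 and 0.65. Kif21a, which halts microtubule growth at the cell cortex, had an intensity of 42.8 on wt/wt day 4, 77.7 on fl/fl day 4, 97.3 on wt/wt day 6 and 112 on fl/fl day 6, in the same order of arrays. Its day difference was 0.94 and 0.45.

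Kif12 had an intensity of 70.4 on wt/wt day 4, 96.2 on fl/fl day 4, 78.4 on wt/wt day 6 and 48.3 on fl/fl day 6, so that the fl/fl arrays were both the highest and the lowest. Its day difference came to 0.13 (wt/wt) and -0.80 (fl/fl). Kif7, the motor-like regulator of Hedgehog signalling at the tip of the cilium, was lower at day 6 (-0.53 and -0.19). Kif24, which restrains cilium assembly (0.29 and 0.22), Kif26b (0.27 and 0.21) and Kif21b (0.09 and -0.44) differed little. Kif6 and Kif9, motors of motile cilia, stayed below the filter together with Kif2b, Kif26a, Kif27 and Kif28. Over all 10 kinesins below the filter the intensities ranged from 4.01 to 18.3.

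Genes encoding proteins that work with the spindle kinesins had larger median day differences than the spindle kinesin genes, with each gene read from its brightest probe set. Of 18 spindle partners past the filter, 7 were at least 2-fold higher at day 6 in wt/wt and 8 in fl/fl, all 7 of the former among the latter, and 0 were lower. Over all genes past the filter, 18.3% were higher and 2.97% lower in wt/wt, and 12.2% higher and 2.9% lower in fl/fl. Counts without quantile normalization, in this and the following lists, are to be read against these shares. Such shares were not counted after quantile normalization, so counts on that scale have no background beside them. Cenpe, a spindle motor whose symbol does not match the rule, is counted among the 18. The list's medians were 0.79 and 0.89, and 0.37 and 0.66 after quantile normalization, where 3 and 7 were past 2-fold higher and 1 lower in wt/wt. Kpna2, an importin that holds spindle assembly factors, differed by 1.69 and 1.85. Cdk1, the kinase of mitotic entry, differed by 1.40 and 1.78, Aurkb, the kinase of the passenger complex that Kif20a carries, by 1.32 and 1.73, and Ect2, which works with the Kif23 complex at the furrow, by 1.45 and 1.56.

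Cell cycle transcription genes, E2F and pocket protein genes among them beside those of the late cell cycle, were split. Of 10 past the filter, 4 lay above 0 in wt/wt and 5 in fl/fl. Foxm1 (-0.72 and -0.26) and Mybl2 (-0.63 and -0.73) were lower at day 6 by less than 2-fold. Of 10 past the filter, 4 were 2-fold higher at day 6 in wt/wt and 3 in fl/fl, 0 were lower, and the medians were -0.18 and -0.05. After quantile normalization 4 and 3 were higher, 2 were lower in wt/wt and 0 in fl/fl, and the medians were -0.39 and -0.04. Rbl1, a pocket protein (2.71 and 1.80), Tfdp1, the dimer partner of E2F factors (2.05 and 1.87), and the MuvB subunits Lin54 (1.32 and 1.42) and Lin9 (1.21 and 0.86) had the largest differences. Lin9 had intensities of 14.7 and 14.1 at day 4, below the filter's, so it passed only through day 6 and had to differ in that direction to be counted.

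Cargo partners had 4 of 14 genes 2-fold higher and 1 lower in wt/wt, and 1 higher and 1 lower in fl/fl, with medians of 0.38 and -0.14. After quantile normalization 1 was higher and 2 lower in wt/wt, 0 higher and 1 lower in fl/fl, and the medians were 0.14 and -0.21. Besides Kifap3, the widest were Map7, which recruits conventional kinesin to microtubules (1.58 and 0.73), the scaffold Spag9 (0.72 and 1.16) and Rhot1, the mitochondrial receptor of the motor complex (1.13 and 0.73). Dynein and dynactin, the opposing motor and its cofactor, had 1 of 18 higher and 1 lower in wt/wt, 0 higher and 1 lower in fl/fl, and medians of 0.53 and 0.19, which were 0.07 and -0.04 after quantile normalization. Dctn6 differed by 1.73 and 0.56, the adaptor Bicd2 by -1.02 and -1.25, Dync1i2 by 0.91 and 0.86, and Dynll2 by 0.95 and 0.76.

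Of 8 tubulins, 1 was 2-fold higher in each genotype, 0 were lower in wt/wt and 1 in fl/fl, and the medians were -0.23 and -0.38. After quantile normalization 0 were higher in wt/wt and 1 in fl/fl, 1 was lower in each, and the medians were -0.68 and -0.41. Tubb4b differed by 1.22 and 1.28, Tubb2b by -0.35 and -1.11, Tubb6 by -0.93 and -0.52, and Tubb2a by 0.99 and 0.34. Tubb6 had intensities of 9.22 and 13.9 at day 6, below the filter's, so it passed only through day 4 and had to be lower at day 6. Kifbp, a protein that binds kinesin motor domains and keeps them off microtubules, is no motor and no member of the rule. Its intensity was 72.1 on wt/wt day 4, 64.9 on fl/fl day 4, 166 on wt/wt day 6 and 239.9 on fl/fl day 6, a difference of 1.05 and 1.66.

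**Figure D3:**
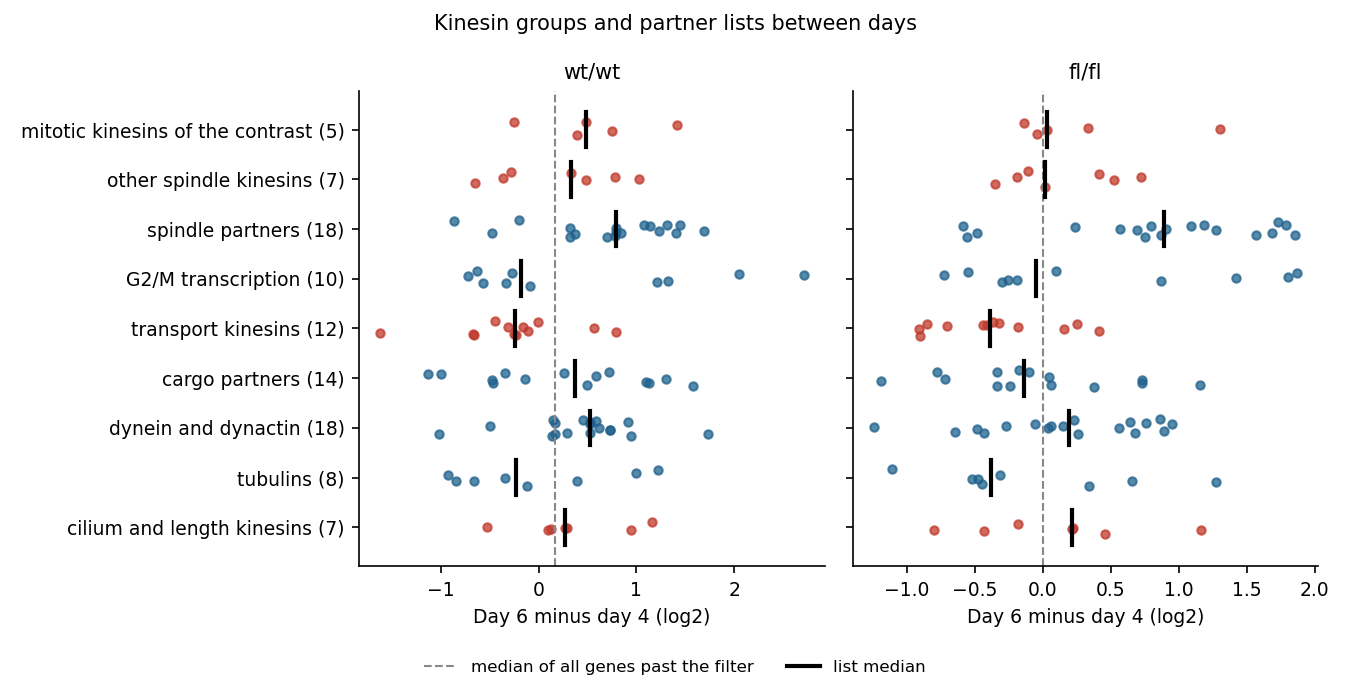
Difference between days in log2(intensity + 16) for each gene past the filter in the kinesin groups (red) and in partner lists (blue), in wt/wt and fl/fl panels with separate scales; bars are list medians and the dashed line the median of all genes, 0.17 and 0.00. The spindle partners have medians of 0.79 and 0.89, to the right of the spindle kinesins.

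A kinesin gene's value depended strongly on which probe set was read. Of 13 kinesins with several probe sets past the filter, 8 (61.5%) had probe sets of opposite sign between days in wt/wt, beside 46.5% of 4816 such genes, and 9 (69.2%) in fl/fl, beside 46.6%. The probe sets lay at least 2-fold apart for 6 kinesins (46.2%) in wt/wt and 5 (38.5%) in fl/fl, against 38.4% and 28.5% of genes. In wt/wt 2 kinesins, Kif11 and Kif1b, had 1 probe set at least 2-fold higher and another at least 2-fold lower at day 6, as did 124 of all such genes.

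For Kif11, beside the brightest probe set, a second one had an intensity of 19.1 on wt/wt day 4, 16.2 on fl/fl day 4, 73.8 on wt/wt day 6 and 70.3 on fl/fl day 6. It was higher at day 6 by 1.35 and 1.42. A further one had 98.8 on wt/wt day 4, 73.8 on fl/fl day 4, 29.7 on wt/wt day 6 and 40.9 on fl/fl day 6, a difference of -1.33 and -0.66. The direction of Kif11 between days was therefore not settled by the array.

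For Kif1b, beside the brightest probe set at -1.62 and -0.91, another had an intensity of 28.2 on wt/wt day 4, 59.5 on fl/fl day 4, 98.1 on wt/wt day 6 and 118 on fl/fl day 6, a difference of 1.37 and 0.83. Over the 6 probe sets of Kif1b past the filter, 4 were lower at day 6 in both genotypes. The probe sets of Kif5b ran from -0.92 to 1.75 in wt/wt and from -0.76 to 0.98 in fl/fl, and those of Kif13a from -0.68 to 1.53 and from -0.91 to 0.66. The 2 probe sets of Kif21a past the filter (0.94 and 1.32 in wt/wt, 0.45 and 0.74 in fl/fl) lay above 0. So did the 3 of Kif2a past the filter (0.12 to 1.16 and 0.56 to 1.24). Which transcripts or ends of transcripts the probe sets measure was not analysed here.

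**Figure D4:**
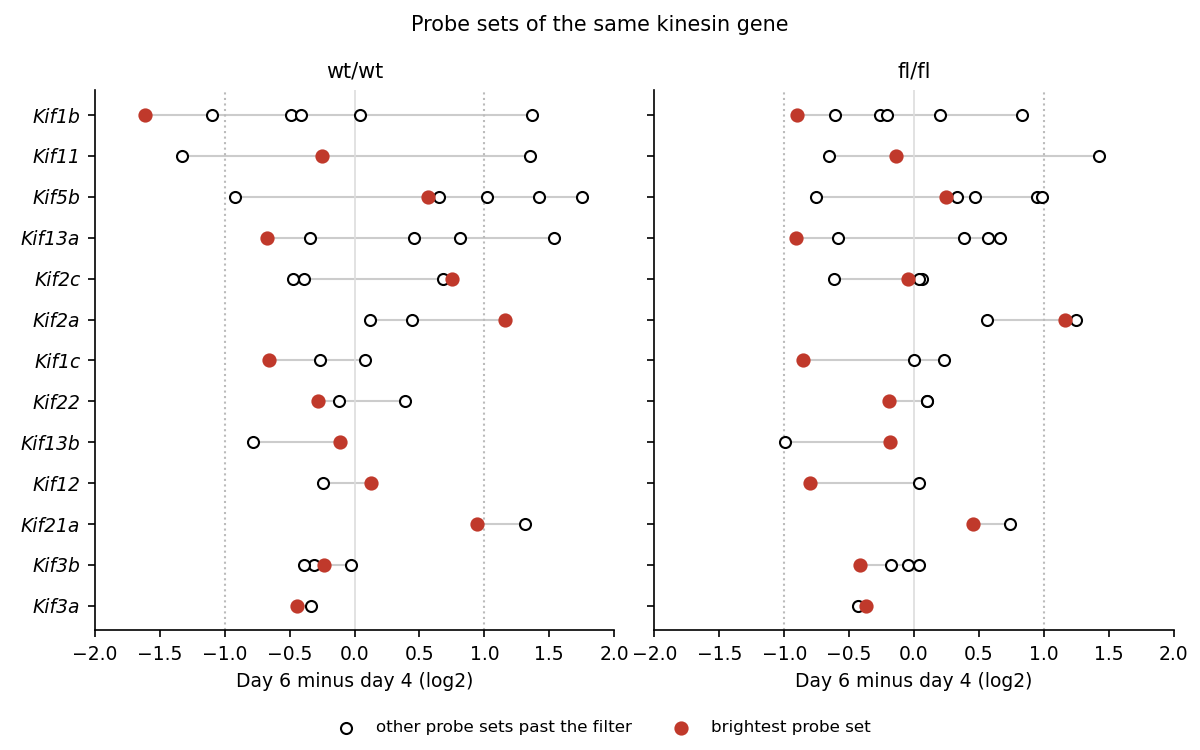
Difference between days in log2(intensity + 16) for every probe set past the filter of the 13 kinesin genes with several, in wt/wt and fl/fl; the brightest probe set is filled and dotted lines mark 2-fold. Probe sets of Kif1b and Kif11 spread past 2-fold to both sides in wt/wt, and those of Kif2a and Kif21a stay above 0.

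Between genotypes, no kinesin differed 2-fold on either day. At day 4, 0 of 31 were higher in fl/fl, against 1.38% of all genes, and 0 lower, against 0.105%; at day 6, 0 were higher, against 0.211%, and 0 lower, against 0.571%. So few genes of the array passed 2-fold between genotypes that a count of 0 among 31 is close to the background. The kinesin medians were 0.14 at day 4 and 0.01 at day 6, beside 0.15 and 0.05 for all genes.

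The widest genotype differences were those of Kif13a, lower in fl/fl at -0.65 on day 4 and -0.89 on day 6, and of Kif2a, higher in fl/fl by 0.69 and 0.70. Both depended on the probe set at day 4: the next brightest read 0.62 for Kif13a and -0.46 for Kif2a there, and -0.25 and 0.34 at day 6, with the direction kept. Kif5b was 0.60 higher in fl/fl at day 4 and 0.28 higher at day 6, and Kif21a 0.67 and 0.18 higher. One dimmer probe set of Kif5b had an intensity of 17.5 on wt/wt day 4, 17.6 on fl/fl day 4, 96.7 on wt/wt day 6 and 30.4 on fl/fl day 6, which was -1.28 in fl/fl at day 6.

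The mitotic kinesins of the contrast, whose protein products share the spindle with Tacc3, had genotype differences of 0.25 and 0.14 for Kif20a, 0.14 and -0.02 for Kif4, 0.43 and 0.06 for Kif23, 0.61 and -0.19 for Kif2c, and 0.18 and 0.29 for Kif11. Their median was 0.25 at day 4 and 0.06 at day 6, and minus the transport median 0.15 and 0.06. Between the days, 19 of 31 kinesins had the same sign of genotype difference (61.3%), beside 52.5% of all genes. Across genes the differences at the 2 days correlated with r = 0.45 and rho = 0.47 for kinesins and r = 0.02 for all genes. This is a description over contrasts that share no array, read from the brightest probe sets. The next brightest probe sets of Kif13a and Kif2a had opposite signs at the 2 days. Between genotypes, probe sets of 30.8% of 13 kinesins lay at least 2-fold apart at day 4, beside 7.12% of genes. At day 6 the shares were 15.4% and 4.86%.

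**Figure D5:**
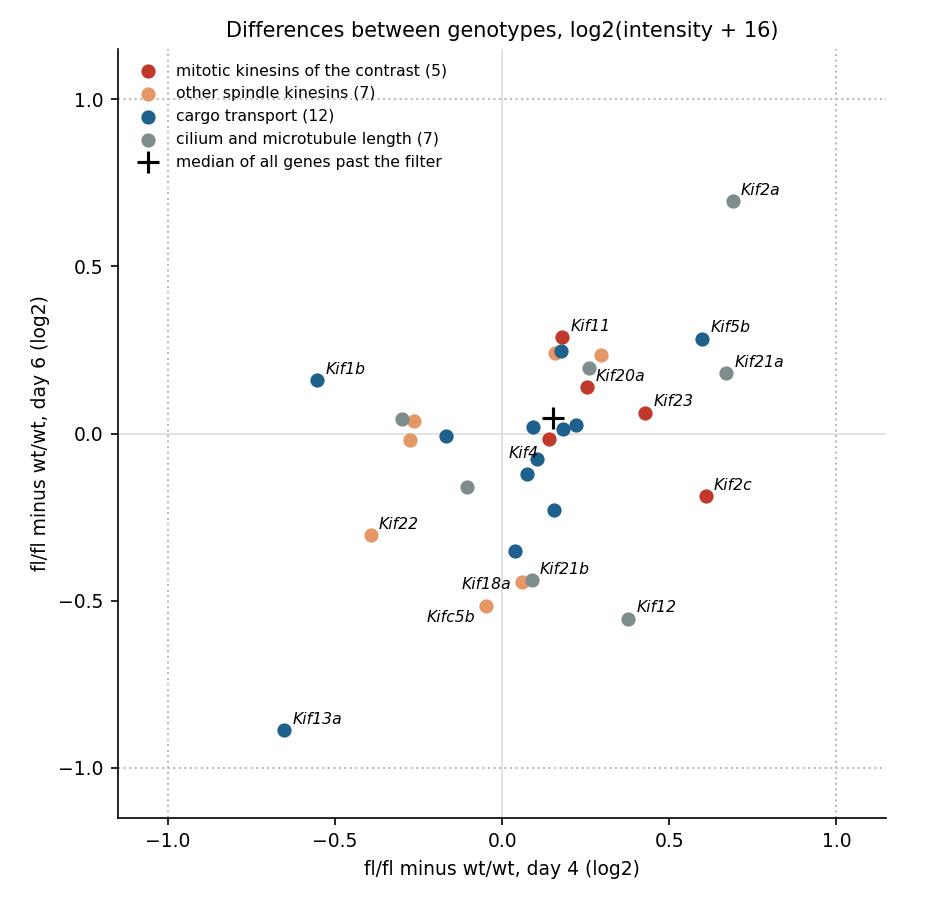
Difference between genotypes at day 4 (horizontal axis) and day 6 (vertical axis), in log2(intensity + 16), for the 31 kinesin genes past the filter by role; dotted lines mark 2-fold and the cross the median of all genes. No point passes 2-fold; Kif2a lies at 0.69 and 0.70 and Kif13a at -0.65 and -0.89.

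Several measures of the arrays themselves moved with the day. The signal ratio of 5' to 3' probe sets for Actb was 0.0610 and 0.0627 at day 4 in wt/wt and fl/fl, and 0.180 and 0.261 at day 6; for Gapdh it was 0.208 and 0.142, and 0.411 and 0.524. Spiked hybridization controls were 2.56-fold (wt/wt) and 2.44-fold (fl/fl) brighter at day 4. The same controls on the wt/wt arrays exceeded those on the fl/fl arrays 1.42-fold at day 4 and 1.41-fold at day 6. Quantile normalization shifted the median day difference of all genes from 0.17 to -0.13 in wt/wt and from 0.00 to -0.12 in fl/fl. It also moved the share of higher genes among those past 2-fold from 86.0% to 51.7% and from 80.9% to 57.9%, and at day 4 between genotypes from 92.9% to 74.5%. The part of these measures in the kinesin differences was not tested. The Tacc3 probe set had an intensity of 184 and 167 in wt/wt and 59.8 and 49.7 in fl/fl at day 4 and day 6, lower in the floxed cultures; whether it lies in the floxed exons is not given.

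The labelled tissue was checked against its markers. All 8 epithelial markers passed the filter, with summed intensities of 17208 on wt/wt day 4, 22405 on fl/fl day 4, 25736 on wt/wt day 6 and 28084 on fl/fl day 6. All 6 enteroendocrine markers passed, at 523, 667, 437 and 1093 in the same order, so the fl/fl day 6 array stood highest. Of mesenchymal markers 2 of 7 passed (150.2, 136, 86.6 and 89.9 summed), of immune markers 2 of 5 on the array (81.6, 65.9, 56.3 and 59.7), of endothelial markers 0 of 3 (48.9, 40.8, 28.4 and 31.2) and of neuronal and glial markers 1 of 4 (55.5, 45.7, 47.3 and 49.2). The part of the enteroendocrine and epithelial marker shifts in the kinesin differences was not tested. Those that passed were Vim and Acta2 (mesenchymal), Cd3e and Csf1r (immune) and S100b (neuronal and glial). Of the others, Ptprc, Col3a1 and Cdh5 were below the filter's intensity on each array, whereas Col1a1, Col1a2 and Pecam1 were above it on wt/wt day 4.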

How the data were processed

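Total RNA of 4 organoid cultures, 100 ng each, was labelled with a 3' in vitro transcription kit and hybridized to Affymetrix arrays, per the labels' protocols. The authors deposited 1 linear intensity per probe set and array for 45101 probe sets; how the probes were summarised and normalised is not given in the sources used here, and the precision rests on 1 array per group. Of the probe sets, 34958 named 1 gene symbol and 932 named several, and the latter were left out. By Entrez ID 34754 of the former matched a RefSeq gene, and 0 symbols changed. Intensities were taken as log2(intensity + 16), the brightest probe set by its mean over the 4 arrays stood for a gene, and genes with a mean under the median of all probe sets (the 50th percentile) were left out of counts and medians. Groups were compared as differences between 2 arrays with no test, and a gene was counted at 2-fold or more. Every kinesin on the array is named. Full values are given for Kif11, Kif20a, Kif23, Kif2c, Kif4 and each kinesin at least 2-fold different. The partner lists are spindle, cell cycle transcription, cargo, dynein and dynactin, and tubulin. From each, up to 4 members with the largest mean absolute day difference are given, and Foxm1 and Mybl2 besides. The members and lists were chosen with earlier results of these data known. Alternatives were the pseudocount, the filter, the choice of probe set, probe sets that bind several transcripts, and the scaling of the arrays. Promoter windows came from RefSeq (GRCm38.p6). The computation, in python 3.11.15 with pandas 2.3.3 and numpy 2.4.6, was tested on simulated data.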

Additional observations from a re-analysis of the deposited data

Results flagged for a closer look

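In 3 kinesins the genotype difference, fl/fl minus wt/wt on the log2(intensity + 16) scale, had opposite signs at the 2 days and lay at least 1.5-fold apart. Kif12 differed by 0.38 at day 4 and -0.55 at day 6, a shift of -0.93. Kif1b differed by -0.55 at day 4 and 0.16 at day 6, a shift of 0.71. Kif2c differed by 0.61 at day 4 and -0.19 at day 6, a shift of -0.80. The differences between the days were not tested, since each rests on 4 single arrays. The next brightest probe set read -0.74 and -0.46 for Kif12 and 0.28 and 0.51 for Kif1b, with like signs on both days, and 0.49 and -0.13 for Kif2c, with the signs opposite as before.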

How the results depend on the processing

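No paired analysis was possible because each group has 1 array and the labels carry no replicate numbers. Under the 8 listed alternatives and the second-brightest probe set, no kinesin passed 2-fold between genotypes. Shares of all genes past 2-fold were not counted under the alternatives, so their kinesin counts have no background beside them. As reported, 4 kinesins (wt/wt) and 2 (fl/fl) passed 2-fold between days. These counts became 1 (Kif1b) and 0 with a pseudocount of 64, 2 (Kif1b, Kif2a) and 1 (Kif2a) with the filter at the 75th percentile, 1 and 1 (Kif20a in each) when probe sets were averaged, and 6 in wt/wt (Kif18a and Kif20a higher; Kif1b, Kif1c, Kif13a and Kif20b lower) and 4 in fl/fl (Kif20a higher; Kif1b, Kif1c and Kif13a lower) with quantile normalization. The mitotic minus transport median, 0.73 in wt/wt and 0.42 in fl/fl, was 0.91 and 0.59 with a pseudocount of 1, 0.46 and 0.24 with 64, 0.56 and 0.25 with quantile normalization, and in wt/wt 0.83 with the stricter filter and 0.50 with averaged probe sets. Between genotypes at day 4, 0.15 as reported, it was 0.31 with a pseudocount of 1 and 0.35 with the stricter filter; at day 6 it changed sign to -0.0021 with averaged probe sets. With 2 alternatives chosen after seeing the data, the second-brightest probe set gave 0.88 in wt/wt and 0.30 in fl/fl and turned Kif18a in wt/wt to -0.0467 (a probe set below the filter), and all spindle kinesins in place of 5 gave 0.0501 between genotypes at day 4. The cause of these changes was not tested. Kif20a, with a single probe set, was past 2-fold between days in both genotypes under each alternative except the pseudocount of 64 (0.75 and 0.74) and the stricter filter, which removed it. Dim genes such as Kif18a and Kif20a at day 4 lie near the filter's intensity, where the pseudocount sets much of the difference.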
